A study of Homo sapiens with 12 samples.

Results

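Nuclear genes for the subunits of oxidative phosphorylation were followed across siRNA knockdown of RBM17, U2SURP or CHERP in human embryonic kidney cells. The members are the protein-coding genes whose GENCODE 29 symbol begins with NDUF, UQCR, COX4, COX5, COX6, COX7, COX8 or ATP5, together with SDHA, SDHB, SDHC, SDHD and CYC1. This rule used no measured value, and it found 100 genes among the 60554 gene IDs of the count files. Of these, 95 passed the filter on low counts, and they stand among 29003 genes tested. The 5 that did not pass were COX4I2, COX6A2, COX7B2, ATP5MGL and the readthrough locus NDUFC2-KCTD14, none of which exceeded 8 counts in any library. Of the 95, 78 encode subunits of the 5 respiratory complexes as found in most tissues, 8 are complex I assembly factors, and the others are tissue isoforms, gene copies, associated factors and a readthrough locus.

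RNA was sequenced from 12 libraries, 3 in each of 4 groups: RBM17 knockdown, U2SURP knockdown, CHERP knockdown and control. Each knockdown group received an ON-TARGETplus SMARTpool against its gene, and the control group received ON-TARGETplus Non-targeting siRNA #3, whose label names no pool. All groups share the cells, which the labels call HEK293 in one place and HEK293T, a derivative with the SV40 large T antigen, in another, and all were at passage 10. The targets are spliceosome-associated proteins that bind RNA, and the design asks how the transcriptome differs when each is depleted. Whether the 3 libraries of a group stem from different cultures is not labelled, and the p-values therefore speak only to how much these libraries vary, perhaps for technical reasons. Libraries of a group carry consecutive numbers, and a batch of preparation cannot be told apart from a group. The 3 comparisons with control share the same control libraries. In bulk RNA, fewer cells that express a gene and less of its RNA per cell cannot be told apart.

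Oxidative phosphorylation takes place in the inner mitochondrial membrane. Complexes I and II take electrons from NADH and succinate, complex III passes them to cytochrome c, complex IV passes them to oxygen, and complex V, the ATP synthase, makes ATP from the proton gradient that complexes I, III and IV build. Most subunits are encoded in the nucleus and imported, while a few, all of them in complexes I, III, IV and V, are encoded by mitochondrial DNA. Genes of the nuclear subunits are known to share promoter elements for nuclear respiratory factor 1 (NRF1), for ETS factors such as GABP, and for YY1.

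Promoter windows for 79 of the members were matched by symbol in the RefSeq table (GRCh38.p14), each running from 250 bases before to 50 after the transcript start. In 25 of the 79 (31.6%) at least 1 of the searched motifs was present on either strand, against 9.3% of 27305 promoters of all genes. The NRF1 motif, a palindrome with 1 free base, was in 22.8% of member promoters and 6.28% of all promoters, and the same motif with that base fixed, which it includes, was in 6.33% and 1.36%. The ETS motif ACCGGAAG was in 6.33% of member promoters and 2.32% of all, and the YY1 motif was in 8.86% and 1.28%. A match describes the letters and does not show a site in use. To show what the matches look like, 3 promoters that hold them are given, along with that of COX6A1, a member described below, which holds none, written 5′ to 3′ on the gene's strand with the motif matches in capitals.
SDHB (chr1:17053983-17054282, minus strand): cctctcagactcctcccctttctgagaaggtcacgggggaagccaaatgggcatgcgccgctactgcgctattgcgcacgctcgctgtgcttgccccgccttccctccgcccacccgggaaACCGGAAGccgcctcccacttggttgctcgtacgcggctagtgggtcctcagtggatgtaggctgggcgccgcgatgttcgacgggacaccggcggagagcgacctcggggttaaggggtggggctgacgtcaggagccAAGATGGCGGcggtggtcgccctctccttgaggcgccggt
SDHA (chr5:218070-218369, plus strand): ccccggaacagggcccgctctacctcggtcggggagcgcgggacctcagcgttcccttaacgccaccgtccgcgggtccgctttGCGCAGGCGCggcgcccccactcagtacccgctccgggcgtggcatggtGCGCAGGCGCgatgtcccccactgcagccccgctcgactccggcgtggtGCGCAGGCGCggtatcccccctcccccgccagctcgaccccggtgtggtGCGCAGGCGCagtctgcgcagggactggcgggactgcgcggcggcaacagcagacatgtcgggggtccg
UQCRC1 (chr3:48609597-48609896, minus strand): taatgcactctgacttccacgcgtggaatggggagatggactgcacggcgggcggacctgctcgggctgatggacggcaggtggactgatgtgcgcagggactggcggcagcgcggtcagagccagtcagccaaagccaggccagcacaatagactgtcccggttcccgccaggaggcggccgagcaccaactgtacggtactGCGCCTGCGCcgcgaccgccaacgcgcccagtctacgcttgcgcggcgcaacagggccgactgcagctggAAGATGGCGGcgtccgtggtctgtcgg
COX6A1 (chr12:120437863-120438162, plus strand): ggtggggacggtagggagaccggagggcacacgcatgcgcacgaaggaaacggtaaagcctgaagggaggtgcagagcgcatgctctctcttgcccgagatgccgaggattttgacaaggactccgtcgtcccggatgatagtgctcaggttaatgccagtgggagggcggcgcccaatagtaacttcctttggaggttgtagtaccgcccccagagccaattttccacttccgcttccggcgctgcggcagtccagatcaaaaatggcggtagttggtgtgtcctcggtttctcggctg
The SDHB window held an ETS and a YY1 match, the SDHA window 4 NRF1 matches, and the UQCRC1 window an NRF1 and a YY1 match. These windows were picked to show the motifs, not to set matches against expression. Members described below that rose in RBM17 knockdown included some with a match, as SDHB, SDHA and UQCRC1, and some without. Those without included NDUFAF3, NDUFAF8, NDUFS6, NDUFB10, NDUFC1 and ATP5PB. Of members that fell there, the window of NDUFA13 held an ETS match, and those of NDUFB1 and NDUFAF7 held none. A link of matches with expression was not tested.

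The libraries held between 252505520 and 320986785 counts over genes. Each siRNA pool lowered its target, with RBM17 at 26 to 27.0 CPM in RBM17 knockdown and 112 to 118 CPM in control, U2SURP at 138 to 149 CPM in U2SURP knockdown and 434 to 499 CPM in control, and CHERP at 17.2 to 18.8 CPM in CHERP knockdown and 60.1 to 62.1 CPM in control. CPM here is the read count scaled to library size after TMM normalization (trimmed mean of M-values). The 100 members took 0.826 to 0.875% of all counts in RBM17 knockdown, 0.726 to 0.749% in U2SURP knockdown, 0.745 to 0.751% in CHERP knockdown and 0.663 to 0.703% in control. Control library 3, at 0.703%, stood above the other controls at 0.663 and 0.666%, and RBM17 knockdown library 1, at 0.826%, stood below the other RBM17 knockdown libraries at 0.870 and 0.875%. Of the HEK293 markers PAX2, NEFM, NEFL, VIM and KRT18, all 5 were expressed, with sums of 696 to 792 CPM in RBM17 knockdown, 617 to 671 in U2SURP knockdown, 623 to 732 in CHERP knockdown and 617 to 685 in control. Markers of blood (4 of 7 passed the filter), fibroblasts (5 of 6), endothelium (2 of 3) and muscle (3 of 3) summed to at most 4.66, 22.6, 0.271 and 3.15 CPM in any library, the highest of each in control. Of the 7 blood markers, HBB was at 0 in every library and PTPRC reached at most 0.0125 CPM. Other blood markers carried nearly all of that list's sum, which ran from 2.43 to 4.66 CPM. The part of these markers in the results was not tested.

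In RBM17 knockdown the nuclear genes of oxidative phosphorylation rose broadly. Of the 95 members tested, 72 were higher than in control and 7 lower at an adjusted p under 0.05, where 25.4% of all genes tested were called higher and 29.3% lower. Among the 16301 protein-coding genes tested, 38.7% were called higher and 27.2% lower. The median log2 fold change was 0.413 over the members, 0.06 over protein-coding genes and -0.099 over all genes tested. The 3 RBM17 knockdown libraries lay above all 3 control libraries for 70 members and below them for 11, and groups of either kind did not overlap for 59.3% of all genes tested. Without control library 3 the members' median was 0.495, and with protein-coding genes alone it was 0.343. How reads in exons shared with another gene or with a pseudogene were counted is not known. Of 20 members with neither a shared exon nor a named pseudogene 15 were higher and 1 lower, and the part of such reads in the results was not tested.

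**Figure D1:**
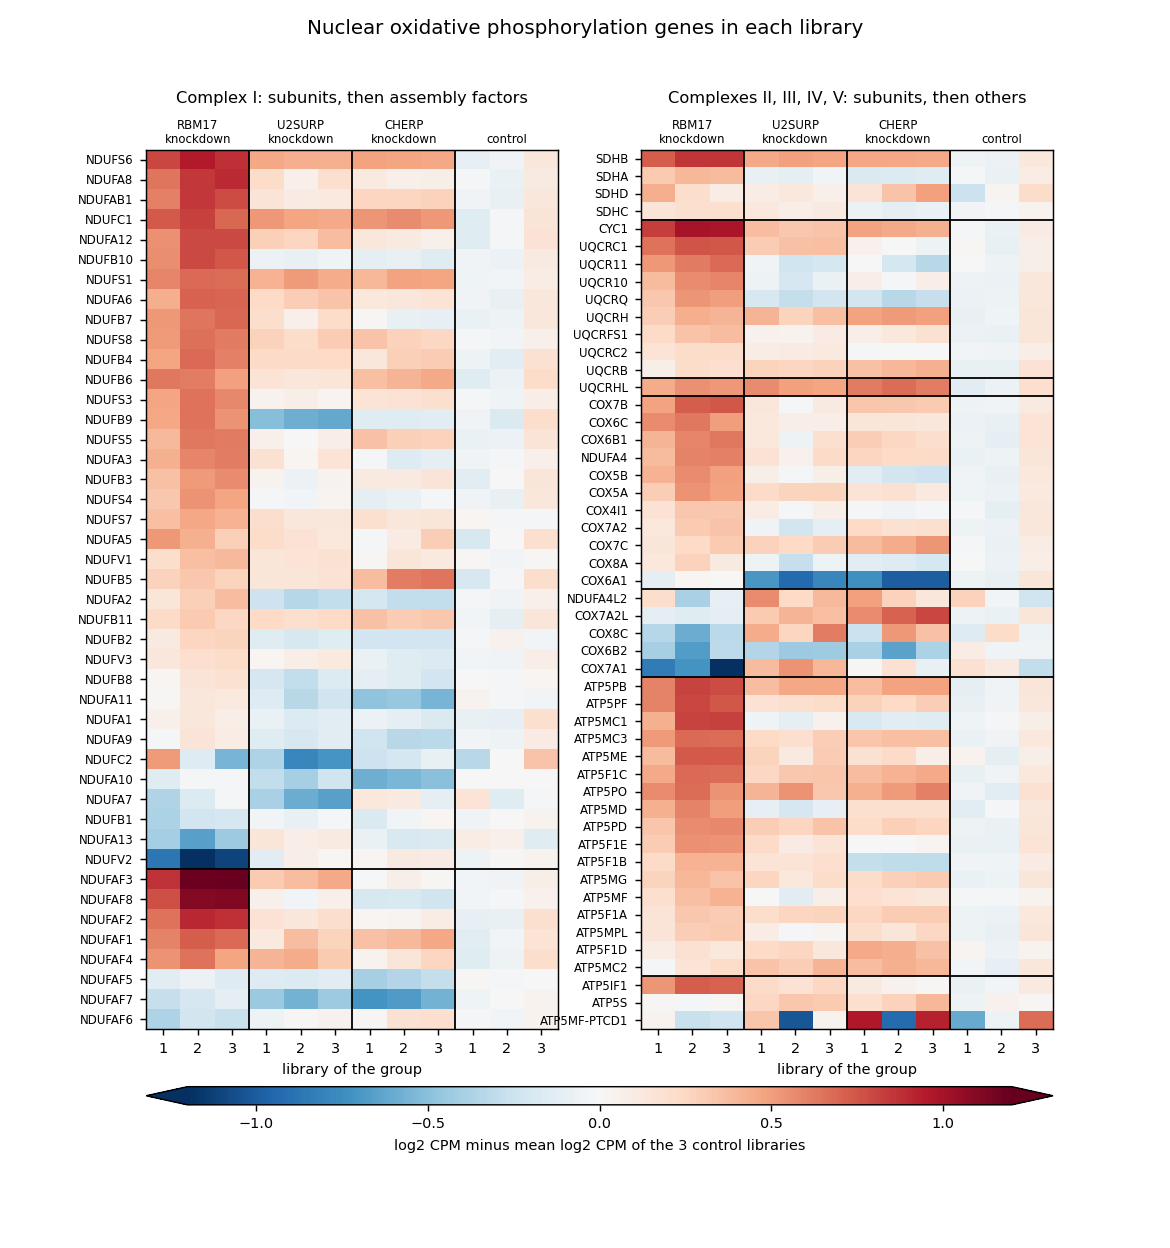
Heat map of members tested (rows, grouped by complex and then by role) in the 12 libraries (columns, 3 per group). Colour gives log2 CPM minus the mean log2 CPM of the 3 control libraries, and arrows on the scale mark values beyond its ends. Red fills most rows of RBM17 knockdown, where 72 members were called higher, and NDUFV2 and COX7A1 stand out in blue.

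U2SURP and CHERP knockdown gave fewer and more mixed calls. In U2SURP knockdown 39 of the 95 members were higher and 12 lower, where 21.1% of all genes tested were called higher and 22.2% lower, and the median was 0.122. Without control library 3 that median was 0.19. In CHERP knockdown 41 were higher and 17 lower, where 22.8% of all genes were called higher and 24.6% lower, and the median was 0.137. For the protein-coding background the shares were 29.4% called higher and 26.8% called lower in U2SURP knockdown, and 29.6% and 31.0% in CHERP knockdown. The U2SURP knockdown libraries lay above all control libraries for 38 members and below them for 14, where groups of 52.0% of all genes tested did not overlap, and the CHERP knockdown libraries lay above for 39 and below for 20, where the share was 54.9%. Required to exceed a 1.2-fold change, 7 members were higher and 4 lower in U2SURP knockdown, and 17 higher and 4 lower in CHERP knockdown.

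The knockdowns were also set against each other. RBM17 knockdown exceeded U2SURP knockdown for 66 members and was below it for 10, where 23.0% of all genes were called higher and 21.5% lower (36.2% and 20.3% of protein-coding genes), with a median log2 difference of 0.307. RBM17 knockdown exceeded CHERP knockdown for 67 members and was below it for 14, where 26.1% of all genes were called higher and 25.5% lower (40.4% and 23.0% of protein-coding genes), with a median of 0.286. The 14 became 8 without CHERP knockdown library 3. Required to exceed a 1.2-fold change, 35 members were higher and 5 lower in RBM17 than in U2SURP knockdown, and 37 higher and 4 lower in RBM17 than in CHERP knockdown. U2SURP knockdown was above CHERP knockdown for 17 members and below it for 14, where 15.0% of all genes were called higher and 12.9% lower (21.4% and 15.2% of protein-coding genes), with a median of -0.007. The 17 became 11 without U2SURP knockdown library 3 and 10 without CHERP knockdown library 2, while the 14 became 26 in a fit of these groups alone. At the 1.2-fold threshold 1 member was higher and 2 lower.

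**Figure D2:**
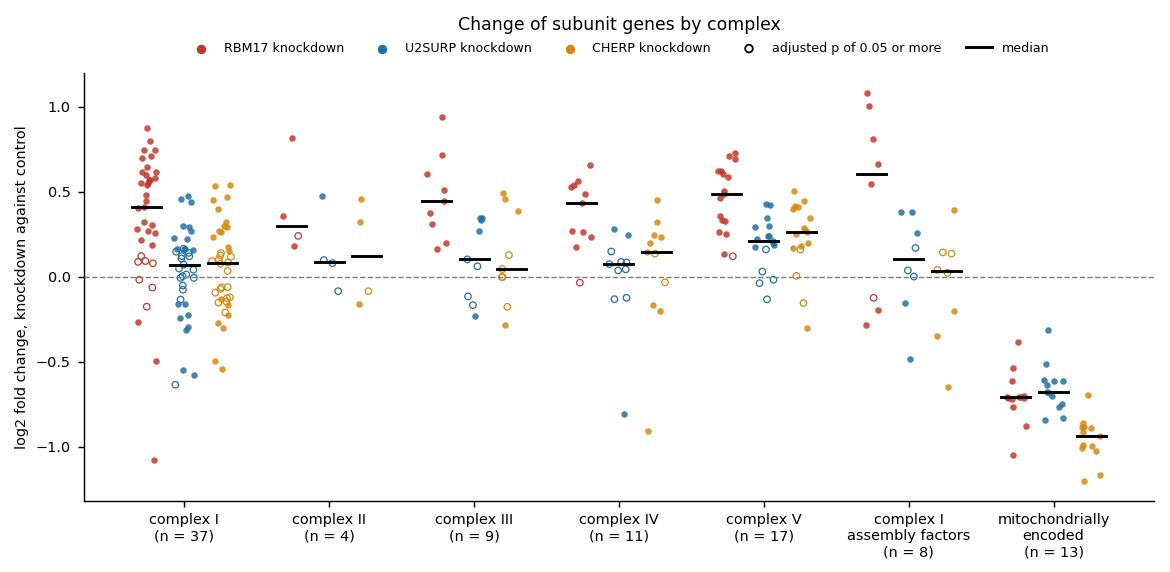
Log2 fold change of each subunit gene against control (vertical axis) by complex, for complex I assembly factors and for mitochondrially encoded subunits, in the 3 knockdowns (colours). Filled points passed an adjusted p under 0.05 and bars are medians. The medians of RBM17 knockdown lie highest in each nuclear class, and all 13 mitochondrially encoded subunits lie below 0 in each knockdown.

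Complex I, which oxidises NADH, supplied 37 of the subunit genes. In RBM17 knockdown 27 of the 37 were higher and 3 lower, in U2SURP knockdown 12 were higher and 8 lower, and in CHERP knockdown 13 were higher and 7 lower. The RBM17 knockdown share called higher was 73.0%, against 38.7% of protein-coding genes. The U2SURP knockdown shares of 32.4% higher and 21.6% lower were near the 29.4% and 26.8% of protein-coding genes, and the CHERP knockdown share of 35.1% higher was near 29.6%, with 18.9% lower against 31.0%. NDUFS1, the largest iron-sulfur subunit, rose in each, with 197, 210 and 208 CPM in RBM17 knockdown, 175, 187 and 178 CPM in U2SURP knockdown, 173, 183 and 182 CPM in CHERP knockdown, and 126, 128 and 139 CPM in control. No knockdown library of NDUFS1 reached down to the control libraries, and the log2 fold changes were 0.65 ± 0.052, 0.46 ± 0.052 and 0.45 ± 0.052 (SE; adjusted p = 3.15e-10, 1.82e-07 and 1.27e-07) in RBM17, U2SURP and CHERP knockdown. NDUFV1, the flavin subunit that receives electrons from NADH, rose by 0.33 ± 0.053 in RBM17 knockdown (adjusted p = 1.39e-05) and 0.16 ± 0.053 in U2SURP knockdown (adjusted p = 0.0145), and stood at 0.09 ± 0.053 in CHERP knockdown (adjusted p = 0.158).

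NDUFV2, an iron-sulfur subunit of the catalytic core, was below the 5 CPM asked of named genes and is named here after its values were seen. It had 1.24, 0.932 and 1.05 CPM in RBM17 knockdown, 2.07, 2.39 and 2.31 in U2SURP knockdown, 2.31, 2.44 and 2.43 in CHERP knockdown, and 2.18, 2.29 and 2.34 in control. RBM17 knockdown lay below all other libraries, a log2 fold change of -1.08 ± 0.11 against control (adjusted p = 1.99e-08). Over 28.4% of its exon length NDUFV2 overlaps the gene AP005263.1, and how the counting treated reads from shared exons is not given in the sources used here.

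The accessory subunits of complex I surround its catalytic core. NDUFS6 (ENSG00000145494; GRCh38 chromosome 5, 1801400 to 1816605, plus strand), a zinc-binding subunit, had 42.9, 47.5 and 45.0 CPM in RBM17 knockdown, 33.9, 33.2 and 33.0 in U2SURP knockdown, 34.3, 34.0 and 33.8 in CHERP knockdown, and 23.0, 23.9 and 26.9 in control. The 4 groups formed 3 separate levels, with U2SURP and CHERP knockdown together in the middle. The log2 fold changes were 0.88 ± 0.058 in RBM17 knockdown (adjusted p = 1.62e-11), 0.44 ± 0.058 in U2SURP knockdown (adjusted p = 1.46e-06) and 0.47 ± 0.058 in CHERP knockdown (adjusted p = 3.89e-07). NDUFC1, a small membrane-arm subunit, likewise rose by 0.75 ± 0.062, 0.48 ± 0.062 and 0.53 ± 0.062 in RBM17, U2SURP and CHERP knockdown (adjusted p = 4.94e-10, 1.1e-06 and 1.42e-07), with 18.5% of its exon length shared with other genes. NDUFB5 rose most in CHERP knockdown, by 0.54 ± 0.08 (adjusted p = 6.47e-06), against 0.28 ± 0.08 in RBM17 knockdown (adjusted p = 0.00459). In U2SURP knockdown NDUFB5 stood at 0.15 ± 0.08 (adjusted p = 0.145), below CHERP knockdown by 0.39 ± 0.079 (adjusted p = 0.000634).

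NDUFB9, a subunit of the distal membrane arm, moved in opposite directions in different knockdowns. It had 123, 140 and 129 CPM in RBM17 knockdown, 62.2, 59.1 and 57.9 in U2SURP knockdown, 80.4, 80.2 and 81.4 in CHERP knockdown, and 86.3, 79.0 and 103 in control. RBM17 knockdown lay above and U2SURP knockdown below every control library, while CHERP knockdown overlapped control. NDUFB9 rose by 0.55 ± 0.069 in RBM17 knockdown (adjusted p = 4.36e-07) and fell by 0.58 ± 0.07 in U2SURP knockdown (adjusted p = 5.11e-07), and its log2 difference of RBM17 from U2SURP knockdown was 1.13 ± 0.07 (adjusted p = 1.89e-11). NDUFB10, another membrane-arm subunit, rose by 0.70 ± 0.059 in RBM17 knockdown (adjusted p = 6.11e-10), with 168, 198 and 191 CPM against 111, 109 and 123 CPM in control, and RBM17 exceeded U2SURP knockdown by 0.78 ± 0.059 (adjusted p = 2.69e-10). For NDUFB9, exons shared with other genes cover 21.0% of the length, and 3 pseudogenes carry its name.

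NDUFA10 (ENSG00000130414; GRCh38 chromosome 2, 239892450 to 240025402, minus strand), an accessory subunit related to nucleoside kinases, fell in U2SURP and CHERP knockdown. It had 110, 120 and 120 CPM in RBM17 knockdown, 99.4, 92.1 and 103 in U2SURP knockdown, 81.3, 83.4 and 86.1 in CHERP knockdown, and 121, 122 and 122 in control. All knockdown libraries lay below control, those of RBM17 knockdown by a small margin. The changes were -0.31 ± 0.052 in U2SURP knockdown (adjusted p = 2.96e-05) and -0.54 ± 0.052 in CHERP knockdown (adjusted p = 7.8e-09), against -0.06 ± 0.052 in RBM17 knockdown (adjusted p = 0.321). The direct differences of RBM17 from U2SURP knockdown (0.25 ± 0.052, adjusted p = 0.000352) and from CHERP knockdown (0.48 ± 0.052, adjusted p = 3.86e-08) passed the test. NDUFA11 and NDUFA2, also accessory subunits, fell in both of these knockdowns, NDUFA11 by 0.24 ± 0.064 and 0.50 ± 0.064 (adjusted p = 0.00334 and 8.41e-07) and NDUFA2 by 0.30 ± 0.065 and 0.27 ± 0.065 (adjusted p = 0.000668 and 0.00127) in U2SURP and CHERP knockdown. NDUFA11's call in U2SURP knockdown was lost with offsets for GC content and length. In RBM17 knockdown the accessory subunits that fell were NDUFA13, by 0.50 ± 0.087 (adjusted p = 3.17e-05), and NDUFB1, by 0.27 ± 0.061 (adjusted p = 0.000715). Over RBM17 knockdown and control NDUFA13 averaged below the 5 CPM asked of named genes, and 21.0% of its exon length is shared with other genes. NDUFA13 was above CHERP knockdown in U2SURP knockdown by 0.26 ± 0.086 (adjusted p = 0.0264), a call that 7 of 13 alternatives kept. NDUFC2 spread widely within groups, with 19.4, 12.2 and 9.22 CPM in RBM17 knockdown and 10.8, 13.5 and 17.2 CPM in control, and passed the test in no comparison with control.

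The 8 complex I assembly factors under the rule, proteins that build the complex without staying in it, held the largest increases of RBM17 knockdown. They also held several of the decreases. In RBM17 knockdown 5 were higher and 2 lower, in U2SURP knockdown 3 higher and 2 lower, and in CHERP knockdown 1 higher and 3 lower. Called higher were 62.5%, 37.5% and 12.5%, and called lower 25.0%, 25.0% and 37.5%, in RBM17, U2SURP and CHERP knockdown. Among protein-coding genes 38.7%, 29.4% and 29.6% were called higher, and 27.2%, 26.8% and 31.0% lower. The U2SURP knockdown shares were near that background. NDUFAF3 (ENSG00000178057; GRCh38 chromosome 3, 49020459 to 49023495, plus strand) had 84.0, 104 and 105 CPM in RBM17 knockdown, 57.4, 59.6 and 63.3 in U2SURP knockdown, 45.8, 48.4 and 46.4 in CHERP knockdown, and 45.0, 44.8 and 48.5 in control. RBM17 knockdown stood apart from all other libraries, U2SURP knockdown lay between, and CHERP knockdown overlapped control. NDUFAF3 was 2.12-fold higher in RBM17 knockdown (log2 1.08 ± 0.068, adjusted p = 7.4e-12) and 1.3-fold higher in U2SURP knockdown (log2 0.38 ± 0.067, adjusted p = 5.5e-05), and its log2 fold change in CHERP knockdown was 0.02 ± 0.067 (adjusted p = 0.805). This last value was called higher once the fit had offsets for GC content and length. The gene DALRD3, on the opposite strand, shares 21.7% of the exon length of NDUFAF3. NDUFAF8 (ENSG00000224877; GRCh38 chromosome 17, 81239239 to 81241281, plus strand), which works with NDUFAF5, had 17.7, 22.1 and 22.3 CPM in RBM17 knockdown, 10.8, 10.1 and 10.8 in U2SURP knockdown, 9.05, 9.11 and 8.78 in CHERP knockdown, and 10.1, 10.2 and 10.7 in control. Its rise in RBM17 knockdown was 2.01-fold (log2 1.01 ± 0.075, adjusted p = 8.6e-11), and its fall in CHERP knockdown, by 0.20 ± 0.075 (adjusted p = 0.0315), was kept by 5 of 13 alternatives. NDUFAF2, a late-acting assembly factor related to NDUFA12, rose in RBM17 knockdown by 0.81 ± 0.073 (adjusted p = 1.71e-09), with 29.7, 35.3 and 34.6 CPM against 17.6, 17.7 and 21.5 CPM in control.

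NDUFAF7, a mitochondrial methyltransferase, fell in each knockdown. It had 19.1, 20.2 and 21.3 CPM in RBM17 knockdown, 17.0, 15.6 and 17.1 in U2SURP knockdown, 14.1, 14.5 and 15.6 in CHERP knockdown, and 22.4, 23.3 and 23.8 in control. No knockdown library reached the control range. The changes were -0.20 ± 0.062 in RBM17 knockdown (adjusted p = 0.0094), -0.48 ± 0.062 in U2SURP knockdown (adjusted p = 1.04e-06) and -0.65 ± 0.062 in CHERP knockdown (adjusted p = 7.81e-09). The call in RBM17 knockdown was lost without RBM17 knockdown library 1 and with DESeq2, and 9.5% of the exon length is shared. NDUFAF5, a hydroxylase of NDUFS7, fell by 0.35 ± 0.055 in CHERP knockdown (adjusted p = 1.34e-05) and by 0.16 ± 0.055 in U2SURP knockdown (adjusted p = 0.0243), a call that 7 of 13 alternatives kept. NDUFAF6 fell in RBM17 knockdown by 0.28 ± 0.061 (adjusted p = 0.00036), and was also lower there than in U2SURP knockdown, by 0.28 ± 0.061 (adjusted p = 0.000479), and than in CHERP knockdown, by 0.42 ± 0.061 (adjusted p = 3.14e-06).

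Complex II, succinate dehydrogenase, is encoded wholly in the nucleus. Of its 4 genes 3 were higher in RBM17 knockdown, 1 in U2SURP knockdown and 2 in CHERP knockdown, where 1 was lower. Of protein-coding genes 38.7%, 29.4% and 29.6% were called higher in RBM17, U2SURP and CHERP knockdown, and 31.0% lower in CHERP knockdown. The complex II shares of 25.0% higher in U2SURP knockdown and 25.0% lower in CHERP knockdown did not exceed that background. The shares called higher in RBM17 and CHERP knockdown lay above it. SDHB (ENSG00000117118; GRCh38 chromosome 1, 17018722 to 17054170, minus strand), the iron-sulfur subunit, has no exon shared with another gene and no named pseudogene. It had 90.7, 99.5 and 99.5 CPM in RBM17 knockdown, 75.2, 77.3 and 76.2 in U2SURP knockdown, 75.4, 75.4 and 75.2 in CHERP knockdown, and 52.7, 52.2 and 59.8 in control. As for NDUFS6, U2SURP and CHERP knockdown shared a level between RBM17 knockdown and control. The log2 fold changes were 0.81 ± 0.055 (adjusted p = 2.21e-11) in RBM17 knockdown, 0.47 ± 0.055 (adjusted p = 2.54e-07) in U2SURP knockdown and 0.46 ± 0.055 (adjusted p = 2.75e-07) in CHERP knockdown. SDHA, the flavin subunit that oxidises succinate, rose by 0.36 ± 0.051 in RBM17 knockdown (adjusted p = 2.11e-06) and fell by 0.16 ± 0.051 in CHERP knockdown (adjusted p = 0.0114), and the CHERP knockdown call was lost with offsets for GC content and length and without control library 3. The membrane anchor SDHC rose by 0.18 ± 0.046 in RBM17 knockdown (adjusted p = 0.00186), and the other anchor, SDHD, rose by 0.32 ± 0.12 in CHERP knockdown (adjusted p = 0.0386), a call that 7 of 13 alternatives kept.

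Complex III, the cytochrome bc1 complex, had all 9 subunit genes higher in RBM17 knockdown. In U2SURP knockdown 4 were higher and 1 lower, and in CHERP knockdown 3 were higher and 1 lower. Of protein-coding genes 38.7%, 29.4% and 29.6% were called higher in RBM17, U2SURP and CHERP knockdown. The complex III share of 33.3% higher in CHERP knockdown was near that background, and the U2SURP knockdown share was 44.4%. CYC1, cytochrome c1, had 200, 223 and 221 CPM in RBM17 knockdown, 145, 140 and 142 in U2SURP knockdown, 157, 154 and 151 in CHERP knockdown, and 111, 106 and 120 in control. None of the knockdown libraries overlapped control, and the log2 fold changes were 0.94 ± 0.055, 0.35 ± 0.054 and 0.46 ± 0.054 (adjusted p = 2.72e-12, 1.28e-05 and 2.05e-07) in RBM17, U2SURP and CHERP knockdown. UQCRC1, a core protein of the complex, had 256, 274 and 272 CPM in RBM17 knockdown, 201, 207 and 209 in U2SURP knockdown, 168, 163 and 156 in CHERP knockdown, and 164, 153 and 171 in control. Its log2 fold changes were 0.72 ± 0.052 in RBM17 knockdown (adjusted p = 6.44e-11) and 0.34 ± 0.052 in U2SURP knockdown (adjusted p = 1.15e-05). CHERP knockdown overlapped control for UQCRC1, and the difference of U2SURP from CHERP knockdown, 0.34 ± 0.052 on the log2 scale, passed the test (adjusted p = 2.5e-05). UQCRQ was called in opposite directions, up by 0.45 ± 0.063 in RBM17 knockdown (adjusted p = 1.87e-06) and down by 0.23 ± 0.063 and 0.28 ± 0.063 in U2SURP and CHERP knockdown (adjusted p = 0.00437 and 0.000754). UQCRH, the hinge protein, and its intronless copy UQCRHL rose in each knockdown, UQCRH by 0.37, 0.35 and 0.49 and UQCRHL by 0.50, 0.50 and 0.63 in RBM17, U2SURP and CHERP knockdown (SE 0.059 and 0.067, adjusted p at most 3.85e-05), though reads of near-identical copies could be split between them.

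Complex IV, cytochrome c oxidase, had 10 of 11 subunit genes higher and 0 lower in RBM17 knockdown, 2 higher and 1 lower in U2SURP knockdown, and 6 higher and 3 lower in CHERP knockdown. The share called higher in U2SURP knockdown, 18.2%, was below the 29.4% of protein-coding genes. In RBM17 and CHERP knockdown 90.9% and 54.5% were called higher, against 38.7% and 29.6%, and in CHERP knockdown 27.3% lower against 31.0%. The gene that did not rise in RBM17 knockdown, COX6A1 (ENSG00000111775; GRCh38 chromosome 12, 120438090 to 120440742, plus strand), had the lowest log2 fold change of the 95 members in both other knockdowns. It had 112, 123 and 121 CPM in RBM17 knockdown, 74.8, 63.3 and 70.3 in U2SURP knockdown, 72.6, 60.9 and 60.9 in CHERP knockdown, and 116, 114 and 134 in control. RBM17 knockdown overlapped control, and no U2SURP or CHERP knockdown library reached either. COX6A1 was 1.75-fold lower in U2SURP knockdown (log2 -0.81 ± 0.076, adjusted p = 4.34e-08) and 1.87-fold lower in CHERP knockdown (log2 -0.91 ± 0.076, adjusted p = 4.29e-09). The log2 differences of RBM17 knockdown from U2SURP knockdown, 0.77 ± 0.076 (adjusted p = 5.42e-08), and from CHERP knockdown, 0.87 ± 0.076 (adjusted p = 5.02e-09), also passed the test. It shares 13% of its exon length with the gene AL021546.1 and has 2 named pseudogenes.

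COX7A2L (ENSG00000115944; GRCh38 chromosome 2, 42333546 to 42425088, minus strand), a relative of the COX7A subunits that joins complex III to complex IV in supercomplexes, ran the other way. It had 74.5, 72.6 and 74.2 CPM in RBM17 knockdown, 100, 107 and 103 in U2SURP knockdown, 119, 131 and 140 in CHERP knockdown, and 76.9, 76.1 and 88.9 in control. RBM17 knockdown lay just below the control libraries, and the other knockdowns lay above them without overlap. COX7A2L was 1.28-fold higher in U2SURP knockdown (log2 0.36 ± 0.061, adjusted p = 4.15e-05) and 1.61-fold higher in CHERP knockdown (log2 0.69 ± 0.061, adjusted p = 2.48e-09). In RBM17 knockdown its value was -0.13 ± 0.061 (adjusted p = 0.0821), and all 3 pairs of knockdowns differed, U2SURP from CHERP knockdown by -0.33 ± 0.061 (adjusted p = 0.000217). COX5B was another gene of mixed direction, up by 0.49 ± 0.058 in RBM17 knockdown (adjusted p = 1.49e-07) and down by 0.20 ± 0.058 in CHERP knockdown (adjusted p = 0.006). COX7B rose by 0.66 ± 0.063 in RBM17 knockdown (adjusted p = 5.21e-09) and 0.32 ± 0.063 in CHERP knockdown (adjusted p = 0.000171). COX7A2 was lower in U2SURP than in CHERP knockdown by 0.33 ± 0.064 (adjusted p = 0.000391). NDUFA4, once counted with complex I, rose by 0.53 ± 0.065 in RBM17 knockdown (adjusted p = 2.48e-07) and 0.24 ± 0.065 in CHERP knockdown (adjusted p = 0.00416).

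**Figure D3:**
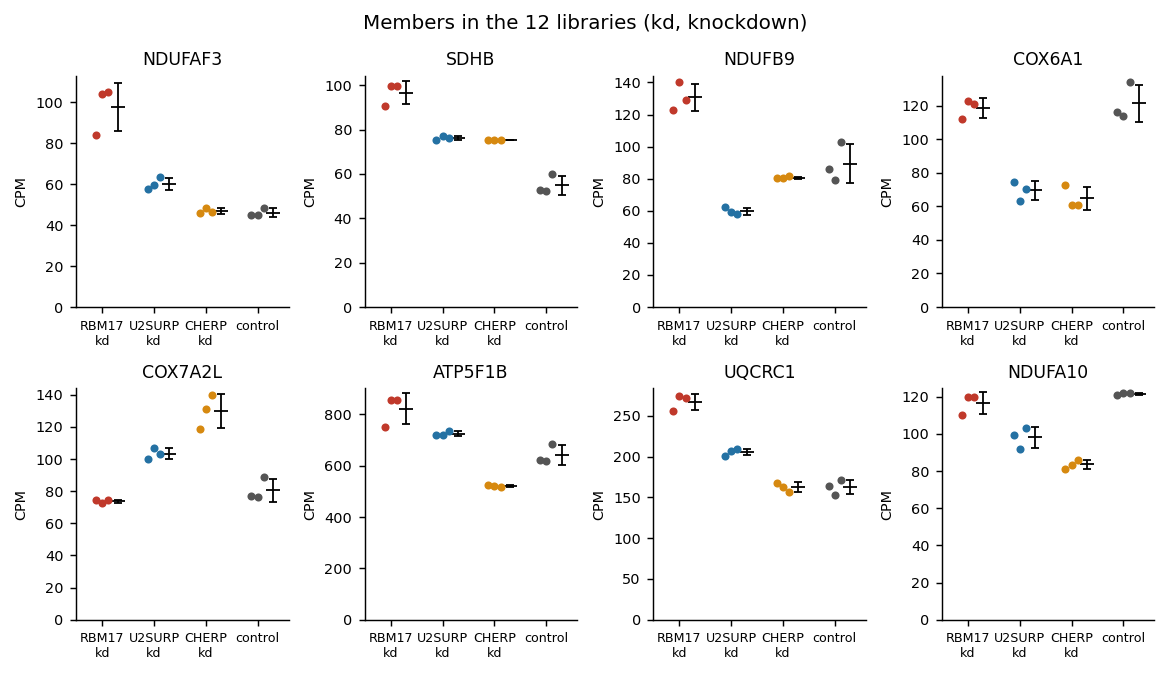
CPM of 8 members in the 12 libraries (points), with mean and SD over 3 libraries beside them, vertical axes starting at 0. NDUFAF3, SDHB and UQCRC1 are highest in RBM17 knockdown, COX6A1 and NDUFA10 are low in U2SURP and CHERP knockdown, and COX7A2L is highest in CHERP knockdown at 119 to 140 CPM.

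Complex V, the ATP synthase, changed in the same direction for most genes. In RBM17 knockdown 16 of 17 subunit genes were higher and 0 lower. In U2SURP knockdown 12 were higher and 0 lower, and in CHERP knockdown 13 were higher and 1 lower. These are 94.1%, 70.6% and 76.5% called higher, against 38.7%, 29.4% and 29.6% of protein-coding genes in RBM17, U2SURP and CHERP knockdown. The 1 that fell in CHERP knockdown was ATP5F1B (ENSG00000110955; GRCh38 chromosome 12, 56638175 to 56646068, minus strand), the catalytic beta subunit. It had 753, 858 and 857 CPM in RBM17 knockdown, 719, 719 and 737 in U2SURP knockdown, 526, 521 and 518 in CHERP knockdown, and 623, 618 and 686 in control. RBM17 and U2SURP knockdown lay above all control libraries and CHERP knockdown below them. The log2 fold changes were 0.36 ± 0.057 in RBM17 knockdown (adjusted p = 1.03e-05), 0.18 ± 0.057 in U2SURP knockdown (adjusted p = 0.0151) and -0.30 ± 0.057 in CHERP knockdown (adjusted p = 0.000117). The call in U2SURP knockdown was lost when U2SURP knockdown library 3, control library 1 or control library 2 was left out. U2SURP exceeded CHERP knockdown for ATP5F1B by 0.48 ± 0.057 (adjusted p = 9.56e-07). ATP5F1A, the alpha subunit that pairs with it, rose by 0.26, 0.24 and 0.29 in RBM17, U2SURP and CHERP knockdown (SE 0.058 each, adjusted p = 0.000526, 0.00156 and 0.00026).

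The c ring of the ATP synthase is encoded by the 3 genes ATP5MC1, ATP5MC2 and ATP5MC3, which give the same mature protein. ATP5MC1 had 60.1, 78.1 and 78.7 CPM in RBM17 knockdown, 43.2, 41.2 and 46.2 in U2SURP knockdown, 39.2, 41.0 and 40.3 in CHERP knockdown, and 43.2, 43.8 and 47.0 in control, a rise of 0.70 ± 0.076 in RBM17 knockdown (adjusted p = 8.62e-08). In U2SURP and CHERP knockdown its values were -0.04 ± 0.076 and -0.15 ± 0.076 (adjusted p = 0.732 and 0.104). ATP5MC2 rose by 0.35 ± 0.062 in U2SURP knockdown and 0.40 ± 0.062 in CHERP knockdown (adjusted p = 7.66e-05 and 1.11e-05), and in RBM17 knockdown stood at 0.12 ± 0.062 (adjusted p = 0.105), past the threshold under 5 of 13 alternatives. ATP5MC3 rose in each, by 0.62, 0.24 and 0.35 (SE 0.057, adjusted p = 2.42e-09, 0.00126 and 1.96e-05). ATP5MC1 and ATP5MC2 have 7 and 3 named pseudogenes, whose reads may be split from theirs. ATP5PB, subunit b of the peripheral stalk, rose by 0.73 ± 0.065, 0.43 ± 0.064 and 0.44 ± 0.064 in RBM17, U2SURP and CHERP knockdown (adjusted p = 1.37e-09, 8.9e-06 and 3.93e-06). ATP5F1D, the delta subunit, was lower in RBM17 than in CHERP knockdown by 0.28 ± 0.052 (adjusted p = 8.8e-05), and ATP5S, an associated factor, was lower in RBM17 knockdown than in U2SURP knockdown by 0.30 ± 0.057 (adjusted p = 0.000145) and than in CHERP knockdown by 0.29 ± 0.057 (adjusted p = 0.000137). ATP5IF1, the inhibitor that blocks ATP hydrolysis by the synthase, rose by 0.65 ± 0.059 in RBM17 knockdown (adjusted p = 1.82e-09) and 0.22 ± 0.059 in U2SURP knockdown (adjusted p = 0.00423), and stood at 0.05 ± 0.059 in CHERP knockdown (adjusted p = 0.482).

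Levels between genes are compared per length, as RPKM over the exons of GENCODE 29. That length is the union of all annotated exons, 14160 bases for SDHC, 2462 for SDHB and 507 for COX8A. Ranks of genes and medians of complexes can therefore reflect the annotation as well as the level. In control the median over subunits was 14.8 RPKM for complex I, 15.9 for complex II, 31.9 for complex III, 46.0 for complex IV and 20.0 for complex V. The widest range was in complex I, where NDUFS5 was highest, at 195 RPKM in RBM17 knockdown, 137 in U2SURP knockdown, 164 in CHERP knockdown and 133 in control. NDUFA7 was lowest, at 0.685 RPKM in RBM17 knockdown, 0.53 in U2SURP knockdown, 0.793 in CHERP knockdown and 0.773 in control, with 33.5% of its exon length shared with other genes. The highest and lowest subunits in control were SDHA at 22.6 and SDHC at 8.29 RPKM in complex II, UQCRH at 113 and UQCR11 at 6.71 RPKM in complex III, COX8A at 96.0 and NDUFA4 at 22.6 RPKM in complex IV, and ATP5F1B at 277 and ATP5PO at 9.36 RPKM in complex V. Isoforms known from other tissues were low or at 0: COX7A1, of heart and skeletal muscle, had 0.349 RPKM in control against 33.4 for its ubiquitous counterpart COX7A2, and COX6A2, the muscle form of COX6A1, had at most 1 count in any library. COX4I2, the lung form, had at most 4 counts, all in RBM17 and CHERP knockdown, while COX4I1 had 44.7 RPKM in control. The testis forms COX6B2 and COX8C had 0.143 and 0.441 RPKM in control, and NDUFA4L2, a relative of NDUFA4, had 0.469 RPKM. COX7A1 fell in RBM17 knockdown, where it had 0.194, 0.212 and 0.0682 CPM against 0.394, 0.376 and 0.284 CPM in control (log2 -1.16 ± 0.27, adjusted p = 0.000968). COX6B2 was also called lower, at log2 -0.45 in RBM17 knockdown (adjusted p = 0.0287) and -0.47 in CHERP knockdown (adjusted p = 0.0273). Of 13 alternatives 6 and 8 kept these calls. NDUFA4L2 was called higher in U2SURP knockdown, at log2 0.38 (adjusted p = 0.0441), which 7 of 13 kept. COX8C passed the test in no comparison with control.

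All 13 subunits encoded by mitochondrial DNA fell in each knockdown. Of the 78 nuclear subunits, 65 were higher and 3 lower in RBM17 knockdown. There were 31 higher and 10 lower in U2SURP knockdown, and 37 higher and 13 lower in CHERP knockdown. These are 83.3%, 39.7% and 47.4% called higher, against 38.7%, 29.4% and 29.6% of protein-coding genes in RBM17, U2SURP and CHERP knockdown. The mitochondrially encoded subunits had median log2 fold changes of -0.709 in RBM17 knockdown, -0.679 in U2SURP knockdown and -0.935 in CHERP knockdown. MT-CYB, the mitochondrial partner of CYC1 in complex III, averaged 2386 ± 110 CPM in RBM17 knockdown, 3185 ± 28.2 in U2SURP knockdown, 2149 ± 246 in CHERP knockdown and 4939 ± 474 in control (SD, n = 3 libraries each). Mitochondrial genes took 4.64 to 5.02% of counts in RBM17 knockdown, 4.94 to 5.15% in U2SURP knockdown, 3.98 to 4.61% in CHERP knockdown and 7.88 to 8.7% in control. CPM of nuclear genes are shares of the same libraries, and the part of the mitochondrial share in their values was not tested. The median log2 RPKM of nuclear minus mitochondrial subunits was -6.58 ± 0.059 in RBM17 knockdown, -7.01 ± 0.077 in U2SURP knockdown, -6.60 ± 0.084 in CHERP knockdown and -7.68 ± 0.083 in control (SD over 3 libraries). Of its 2 sides, the nuclear median was 4.94 in RBM17 knockdown, 4.48 in U2SURP knockdown, 4.50 in CHERP knockdown and 4.39 in control. For this nuclear side the control libraries ran from 4.30 to 4.55. They overlapped U2SURP knockdown (4.45 to 4.50) and CHERP knockdown (4.49 to 4.51), and RBM17 knockdown (4.86 to 5.01) lay above them. The mitochondrial median was 11.51 in RBM17 knockdown, 11.49 in U2SURP knockdown, 11.11 in CHERP knockdown and 12.08 in control.

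**Figure D4:**
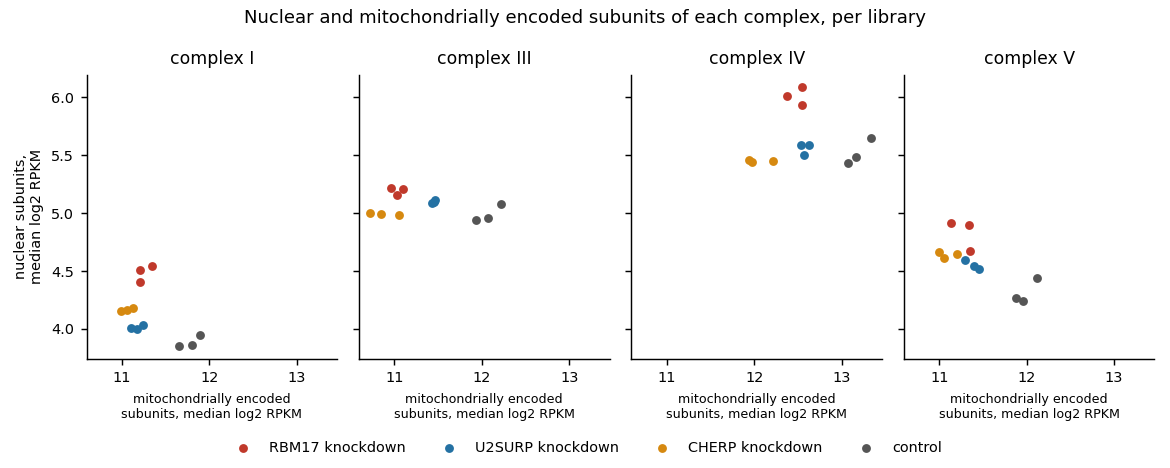
Median log2 RPKM of nuclear subunits (vertical axis) against that of mitochondrially encoded subunits (horizontal axis) for complexes I, III, IV and V, 1 point per library. Control libraries lie furthest right in every panel, and RBM17 knockdown libraries lie highest.

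Of 48 assembly factors whose names fall outside the rule, 36 were higher and 4 lower in RBM17 knockdown, 23 higher and 8 lower in U2SURP knockdown, and 15 higher and 12 lower in CHERP knockdown. These are 75.0%, 47.9% and 31.2% called higher, against 38.7%, 29.4% and 29.6% of protein-coding genes in RBM17, U2SURP and CHERP knockdown, so the CHERP knockdown share was near that background. TACO1, an activator of cytochrome oxidase subunit translation, rose by 0.85 ± 0.059 in RBM17 knockdown (adjusted p = 3.17e-11), and TIMMDC1, a complex I assembly factor, by 0.82 ± 0.053 (adjusted p = 1.2e-11). COX20, a complex IV assembly factor, fell by 0.69 ± 0.088 in RBM17 knockdown (adjusted p = 3.7e-07) and by 0.37 ± 0.087 in U2SURP knockdown (adjusted p = 0.00126). Of 19 genes of the tricarboxylic acid cycle and pyruvate dehydrogenase, 15 were higher and 0 lower in RBM17 knockdown, 12 higher and 1 lower in U2SURP knockdown, and 13 higher and 3 lower in CHERP knockdown. Here the shares called higher were 78.9%, 63.2% and 68.4%. DLAT, of pyruvate dehydrogenase, rose by 0.83 ± 0.06, 0.44 ± 0.06 and 0.62 ± 0.06 in RBM17, U2SURP and CHERP knockdown (adjusted p = 6.16e-11, 2.35e-06 and 9.69e-09).

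Among 25 regulators of mitochondrial gene expression and biogenesis, 17 were higher and 5 lower in RBM17 knockdown, 12 higher and 4 lower in U2SURP knockdown, and 9 higher and 8 lower in CHERP knockdown. The shares called higher in RBM17 and U2SURP knockdown were 68.0% and 48.0%, against 38.7% and 29.4% of protein-coding genes. Called lower there were 20.0% and 16.0%, against 27.2% and 26.8%. In CHERP knockdown 36.0% higher and 32.0% lower were near the 29.6% and 31.0% of protein-coding genes. NRF1 averaged 37.6 ± 1.56 CPM in RBM17 knockdown, 36.2 ± 0.979 in U2SURP knockdown, 31.7 ± 0.779 in CHERP knockdown and 27.3 ± 0.24 in control (SD, n = 3 libraries each), higher in each knockdown (adjusted p = 4.78e-08, 8.39e-07 and 0.00123). TFAM, which packages mitochondrial DNA and starts its transcription, rose by 0.68 ± 0.069 in RBM17 knockdown (adjusted p = 1.27e-08) and 0.40 ± 0.069 in U2SURP knockdown (adjusted p = 4.88e-05), and fell by 0.34 ± 0.069 in CHERP knockdown (adjusted p = 0.00026). SLIRP, which stabilises mitochondrial mRNA, rose by 1.07 ± 0.096 in RBM17 knockdown (adjusted p = 8.62e-08). FASTKD1, a mitochondrial RNA-binding protein, fell by 0.56 ± 0.06, 0.50 ± 0.06 and 0.72 ± 0.06, and POLG2, the accessory subunit of the mitochondrial DNA polymerase, by 0.45 ± 0.05, 0.40 ± 0.05 and 0.30 ± 0.05 in RBM17, U2SURP and CHERP knockdown (adjusted p at most 2.32e-05).

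Members share features that the rule did not use. They were short and expressed above most genes: the median exon length was 2475 bases over the 95 members and 4783 over 16301 protein-coding genes, the median number of exons of the longest transcript was 4 and 8, and the median control level was 46.1 and 18.9 CPM. As a description across genes, which are not independent replicates and share their libraries, the Spearman correlation of exon length with log2 fold change in RBM17 knockdown was -0.278 over 95 members and -0.029 over 16301 protein-coding genes. In U2SURP and CHERP knockdown it was 0.008 and 0.017 over the members. Named pseudogenes existed for 47 of the 100 members, 164 in all.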

How the data were processed

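RNA of HEK293/HEK293T cells was sequenced from libraries of the TruSeq stranded mRNA kit, per the labels' protocols. The authors deposited raw read counts per Ensembl gene, 1 column for each of 12 libraries. HISAT2 2.0.5, SAMtools, HTSeq and GRCh38 are named, without roles, per the submitters' processing notes. Not given in the sources used here are the annotation release, the strand setting and the treatment of reads in shared exons. GENCODE 29 named 57041 of the 60554 gene IDs.

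Counts were filtered with filterByExpr and fitted with edgeR 4.0.16 (R 4.3.3, limma 3.58.1) as 1 model of 4 groups with TMM normalization and robust quasi-likelihood dispersion. Benjamini-Hochberg adjustment covered all 29003 genes tested, and a gene was called at an adjusted p under 0.05. CPM are counts scaled to the TMM-normalized library size, RPKM are CPM per kilobase of the union of exons, and an SE is the log2 fold change divided by the root of its F statistic. Totals ran from 252505520 to 320986785 counts, so counting error is small for most members. Replicates differed beyond sampling noise (chi-square per gene 11.7 to 51.7). The test was also run on counts simulated from its own fit, with far fewer genes changed than were called here. That run cannot show how the test performs on these data. Promoter motifs were searched as literal letters on both strands.

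Named genes are, among called members with a mean of at least 5 CPM, the 6 largest changes per direction of each knockdown against control and the 4 per direction of each direct contrast, the highest and lowest of each complex, and paralogues. Others are described for their role or, as NDUFV2, UQCRQ, COX5B and NDUFC2, for values already seen. The members and lists were chosen with earlier results of these data known. Alternatives were DESeq2 1.42.0 size factors and Wald test, no filter, protein-coding genes alone, a fit of 2 groups, a 1.2-fold threshold (glmTreat), offsets for GC content and length (mgcv 1.9.3) and each library left out. Figures were drawn with matplotlib 3.10.9. A single member is not reported here by name.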

Additional observations from a re-analysis of the deposited data

How the results depend on the processing

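In each alternative run, more members were called higher than lower in each knockdown against control. A required change of at least 1.2-fold left 3 members lower in RBM17 knockdown. It left 7 higher and 4 lower in U2SURP knockdown, and 17 higher and 4 lower in CHERP knockdown. Members called higher in RBM17 knockdown that lost the call at this threshold included COX4I1, COX7A2, COX8A, NDUFA2, NDUFB5 and SDHC. The same threshold left 35 higher and 5 lower for RBM17 against U2SURP knockdown, 37 higher and 4 lower for RBM17 against CHERP knockdown, and 1 higher and 2 lower for U2SURP against CHERP knockdown. The median log2 fold change of RBM17 knockdown was 0.468 with DESeq2 size factors and with its Wald test, and 0.343 with protein-coding genes alone. With protein-coding genes alone the median was 0.247 for RBM17 against U2SURP knockdown and 0.206 for RBM17 against CHERP knockdown. Members lower in U2SURP than in CHERP knockdown numbered 23 with protein-coding genes alone, 23 with offsets for GC content and length, and 26 in a fit of the 2 groups. UQCRC1 in CHERP knockdown changed sign with offsets for GC content and length, to 0.113 (adjusted p = 0.0214). Where the construction of an alternative does not show it, the cause was not tested.

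With each library left out in turn, members higher and lower ran from 69 to 75 and 6 to 8 in RBM17 knockdown, 29 to 49 and 8 to 16 in U2SURP knockdown, and 31 to 49 and 12 to 17 in CHERP knockdown. Their medians ran from 0.39 to 0.495, 0.084 to 0.19 and 0.091 to 0.193, with the highest of each without control library 3. For RBM17 against U2SURP knockdown the counts ran from 60 to 70 and 8 to 10, with medians of 0.281 to 0.372. For RBM17 against CHERP knockdown they ran from 64 to 68 and 8 to 14, with medians of 0.264 to 0.347. For U2SURP against CHERP knockdown they ran from 10 to 14 and 11 to 13, with medians of -0.025 to 0.012. Depth, above 252505520 counts per library, limits only members of few counts. No paired analysis was possible because the replicate numbers follow accession order and the labels carry no number shared between groups.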
